A study of Mus musculus with 4 samples.

Results

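Airway smooth muscle cells of adult mice given an antagonist of all retinoic acid receptors (BMS) were compared with those of mice given the vehicle (CTR), gene by gene, as the BMS value minus the CTR value on the log2 scale. All named genes whose highest value on the 4 arrays of the series reached the median of all named values, 6.05, were taken, which gave 12395 of 23185 named genes and of 25206 probe sets in all. The filter did not use the difference between BMS and CTR itself, but a gene could pass it through a high value on 1 array alone. Among the genes named below, Angptl1, Epyc, Ret, Aldh1a2, Avpr1a, Adamts19 and Tll2 passed through BMS alone. Mir221, Mir27b and Mir505 passed through CTR alone. For such genes the filter and the difference rest on the same high value. Just below this limit was Zswim3, at 6.0511, and just past it Pgam1, at 6.0516.

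Every mouse carried the transgenes Acta2-hrGFP and Cspg4-DsRED, in which the promoter of the smooth muscle actin gene drives a green protein and that of a pericyte gene a red one, and cells that were green but not red were sorted. CTR mice ate a powdered vitamin A-sufficient diet with corn oil for 3 days, and BMS mice ate the same powder with the antagonist at 5 mcg per gram, so the vehicle, the powder and the 3 days are shared by both. The VAS animals had routine sufficient chow (15 IU vitamin A per gram), and those of the VAD group a deficient one (under 0.1 IU per gram), for a time that the protocol states once as 5 days and once as 3. Each array held the pooled RNA of 3 mice of 1 group. There is therefore no spread between mice for any value, and "higher" and "lower" describe these arrays, with no test. The VAS array, the other sufficient control, is placed beside the differences, but it also differed from CTR in the form of the diet, the vehicle and the mice. The differences BMS minus CTR, BMS minus VAS and CTR minus VAS share arrays, so they are given side by side and are not independent of each other.

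Retinoic acid, made from vitamin A by retinol and retinaldehyde dehydrogenases, enters the nucleus and binds receptors that sit on DNA as partners of the retinoid X receptors. Without ligand such receptors hold corepressors on many of their target genes, and an antagonist keeps the ligand from binding. In the lung retinoic acid is known for its part in early budding and in restraining smooth muscle differentiation around the airways.

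The labelled cell type was first checked by its markers. Acta2, smooth muscle actin, stood at 11.98 in CTR and 11.95 in BMS. The mean level of the 17 airway smooth muscle and myofibroblast markers past the filter was 10.80 in VAS, 10.83 in VAD, 10.86 in CTR and 10.75 in BMS. Markers of other cells were measured as well. The 27 adventitial fibroblast markers had a mean level of 9.82 in VAS, 9.67 in VAD, 9.10 in CTR and 9.87 in BMS, so CTR was the low array for this list. The granulocyte and mast cell markers had mean levels of 7.44, 7.49, 6.13 and 6.18 in the same order, low in both arrays of the antagonist experiment. In bulk RNA of this kind, fewer cells of a type and less RNA per cell cannot be told apart.

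BMS stood at least 2-fold above CTR in 133 genes (1.07% of the 12395) and at least 2-fold below it in 35 (0.282%). The largest differences upward were those of the cytokine Il17b, the angiopoietin-like Angptl1 and the matrix protein Thbs4, and the largest downward those of the class I histocompatibility gene H2-T22 and the Wnt inhibitor Wif1. Differences of 4-fold or more were found for 20 genes upward and 1 downward. The median difference was 0.01 and its SD over genes 0.31, with the middle 95% of genes between -0.53 and 0.65. BMS lay above CTR by any amount in 6372 genes (51.4%) and below it in 6012 (48.5%). P2ry1 at 0.9999 and Htra3 at 1.01 were the genes on either side of the upper limit, and Pnp2 at -0.99 and Snord13 at -1.01 those on either side of the lower one. Genes of low level gave more of the 2-fold differences. In 4 equal bins of mean level, from the lowest to the highest, 48, 35, 27 and 23 genes were higher and 18, 11, 3 and 3 were lower.

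**Figure D1:**
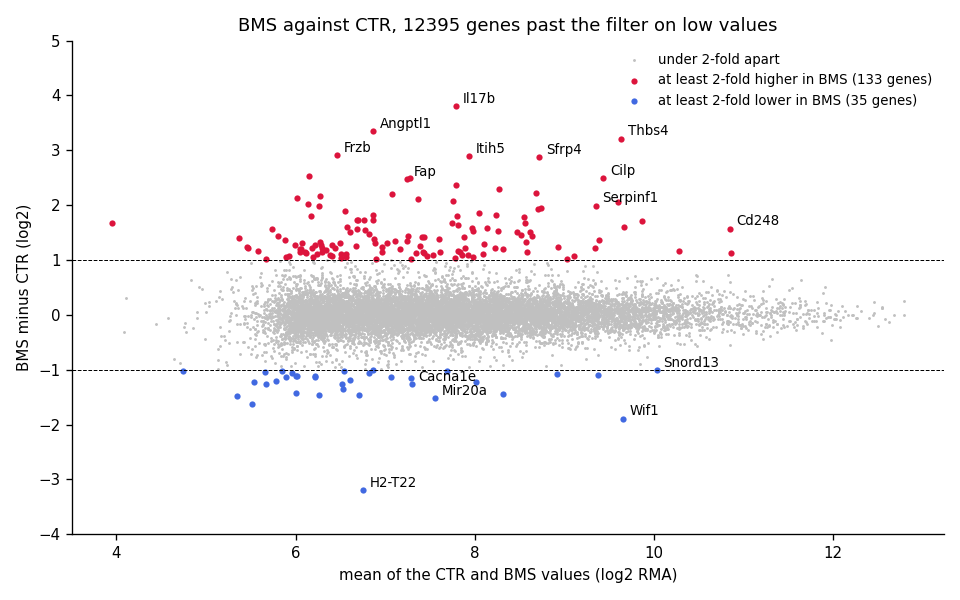
BMS minus CTR (log2, vertical) against the mean of both values (log2 RMA, horizontal), with 1 point per gene past the filter and dashed lines at 2-fold. The 133 red points above the upper line reach 3.81 (Il17b), and of the 35 blue points below the lower line all but H2-T22 (-3.19) lie at -1.89 or above.

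Il17b, a cytokine of the interleukin 17 family, had the largest difference upward. It stood at 6.46 in VAS, 8.11 in VAD, 5.89 in CTR and 9.70 in BMS, 3.81 above CTR. Both control arrays were low and the antagonist array was the highest, with the deficient array in between. Of the 6 genes of the interleukin 17 list past the filter it was the only one 2-fold apart. Il17ra, the receptor subunit shared by the family, differed by -0.42 against CTR and -0.38 against VAS, and Il17rd by 0.25 and 0.24.

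Angptl1, a secreted angiopoietin-like protein, stood at 4.86 in VAS, 4.71 in VAD, 5.19 in CTR and 8.54 in BMS, a difference of 3.35. The other 3 arrays lay close together and below the filter's limit, so only BMS carried this gene past it. Thbs4, a thrombospondin of tendon and muscle matrix, stood at 5.94, 6.14, 8.03 and 11.25 in the same order. Here CTR was itself above both arrays of the diet experiment, and BMS stood 3.21 above CTR. Cilp, a matrix protein of cartilage, was flat at 8.26, 8.31 and 8.19 and reached 10.69 in BMS. Itih5, a hyaluronan-binding inhibitor family member, stood at 7.55, 6.72, 6.50 and 9.38.

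Secreted inhibitors of Wnt signalling were among the largest differences in both directions. Sfrp4, which binds Wnt proteins, stood at 7.92 in VAS, 7.44 in VAD, 7.28 in CTR and 10.16 in BMS. Frzb, a relative of it, stood at 6.72, 5.78, 5.01 and 7.92, and Dkk2, which acts on the Lrp coreceptors, at 6.86, 6.06, 6.61 and 8.98. In all 3 BMS was the highest array by 2-fold or more. Wif1, which also binds Wnt proteins, stood at 8.29, 7.56, 10.60 and 8.71, 1.89 lower in BMS than in CTR. For Wif1 it was CTR that lay apart, and BMS was 0.42 above VAS. Of the 8 antagonists past the filter, 5 were above 0, beside 51.4% of all genes, with a median of 0.24. Among the 8, 3 were 2-fold higher and 1 was 2-fold lower, beside 1.07% and 0.282% of all genes. The others differed little: Sfrp1 differed by 0.36 against CTR and 0.09 against VAS, Notum by 0.13 and 0.37, and Dkk3 by -0.05 and 0.18. Among 31 ligands, receptors and targets of the pathway, 19 were above 0 and none was 2-fold apart, with the Norrin and Wnt receptor Fzd4 at 0.77 (0.19 against VAS), Ccnd1 at 0.57 (0.04) and Apcdd1 at 0.45 (0.66).

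**Figure D2:**
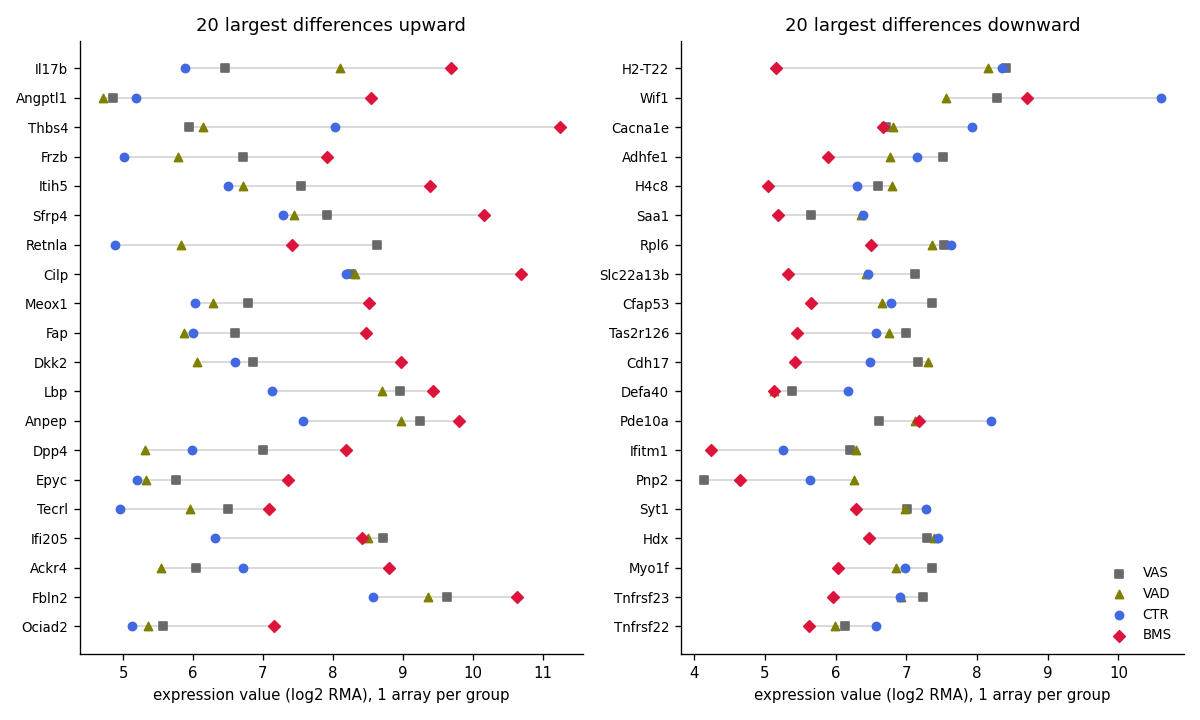
Expression values (log2 RMA, horizontal) on the 4 arrays, 1 marker per array, for the 20 genes furthest from 0 on each side, leaving out provisional, small RNA and other copy-rich names. Il17b, Angptl1, Thbs4 and Sfrp4 have the BMS marker far to the right of the others, whereas for Ifi205 the CTR marker (6.31) lies apart on the left and for Wif1 (10.60) on the right.

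The place of the VAS array divided the 133 higher genes. In 33 of them VAS lay nearer to CTR and BMS was 2-fold past VAS as well. In 27 VAS lay nearer to CTR with BMS under 2-fold past it, and in 73 (54.9%) VAS was at least as near to BMS as to CTR. Over the 133 genes the median difference was 1.34 against CTR, 0.56 against VAS and 0.81 against VAD, while CTR minus VAS had a median of -0.76. BMS was above VAS in 112 of them and below it in 21. CTR was the lowest of the 4 arrays in 115, against 26.9% of all genes, and BMS the highest in 106, against 27.3%. The genes were chosen by a high BMS and a low CTR value, so these counts are a description. For the 35 lower genes, VAS lay nearer to CTR with BMS 2-fold past it in 18, and nearer to BMS in 10. BMS was the lowest array in 28 of them, against 22.9% of all genes, and their medians were -1.15 against CTR and -1.04 against VAS.

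BMS stood at least 2-fold above each of the other 3 arrays in 32 genes (0.258%) and at least 2-fold below each in 15 (0.121%). The same counts were 19 and 6 for VAS, 9 and 9 for VAD, and 6 and 26 for CTR. BMS thus had the most genes apart upward, and CTR the most apart downward. Of the 32, 7 (21.9%) were in one of the 7 matrix lists described further on, which were chosen with earlier results known and hold 1.48% of all genes past the filter. Beside those named above they included Meox1, a homeobox gene, at 6.79, 6.29, 6.03 and 8.52 in VAS, VAD, CTR and BMS. Fap and Dpp4, neighbouring genes for related surface peptidases, stood at 6.60, 5.86, 6.01 and 8.47 and at 7.0025, 5.31, 5.98 and 8.18. Ackr4, a scavenging chemokine receptor, stood at 6.04, 5.54, 6.72 and 8.80. Musk, a receptor kinase of the nerve and muscle junction, stood at 5.92, 6.11, 5.85 and 7.36. BMS was the highest array in each, and the other 3 lay close together for Musk but not for Dpp4. Ptn, a heparin-binding growth factor, was 1.81 above CTR and 1.07 above VAS, the splicing factor Nova1 1.73 and 1.22, and the hemicentin Hmcn2 1.68 and 1.66. The actin-capping Tmod2 was 1.22 above CTR and 1.26 above VAS, and the proteases Adamts19 and Tll2 were 1.18 and 1.12 above CTR and 1.23 and 1.39 above VAS.

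**Figure D3:**
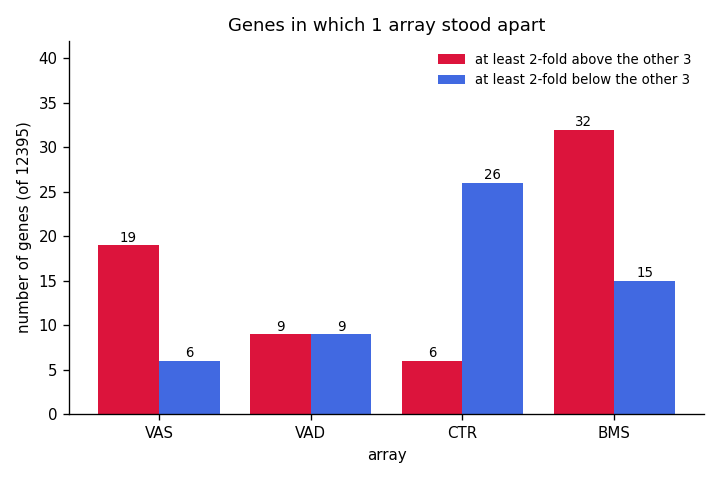
Number of genes, of 12395, in which 1 array lay at least 2-fold above (red) or below (blue) each of the other 3, for each of the 4 arrays. BMS has the tallest red bar (32 genes) and CTR the tallest blue bar (26 genes).

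Retinoid genes differed less than these. Of 33 named genes of uptake, binding and metabolism, 19 passed the filter, 13 were above 0 and 1 was 2-fold higher. Adh1, a dehydrogenase that oxidises retinol, stood at 11.06 in VAS, 10.73 in VAD, 9.70 in CTR and 10.87 in BMS. CTR was its low array, and BMS was 0.18 below VAS. Aldh1a2, which makes retinoic acid, stood at 5.47, 5.68, 5.53 and 6.41, with BMS alone higher. Aldh1a1, with the same activity, stood at 8.78, 9.52, 8.08 and 8.91, and Dhrs3, which reduces retinaldehyde, at 9.30, 10.34, 9.63 and 10.20. Both were highest in the deficient array. The list's median was 0.18 against CTR and -0.08 against VAS, beside 0.01 and 0.02 for all genes.

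No receptor or coregulator of the 15 past the filter was 2-fold apart, and their differences ran from -0.17 (Crebbp) to 0.16 (Rarb). Rarb, a receptor gene that retinoic acid itself is known to induce, stood at 6.43, 6.39, 6.42 and 6.58, nearly level on the 4 arrays. Rara, Rarg and Rxra differed by 0.03, 0.15 and -0.07 against CTR, and Rara and Rarg by 0.36 and 0.62 against VAS. Of 26 retinoic acid response genes, 12 were above 0 and 14 below, with a median of -0.02. Ret, a receptor kinase for glial cell line-derived factors, was the only one 2-fold apart, at 5.54, 5.74, 5.88 and 6.95. Meis2 was 0.81 higher than in CTR and 0.28 higher than in VAS, Zfp423 0.53 and 0.49, and Hoxb4 differed by -0.83, from 7.20 in CTR to 6.37 in BMS, with VAS at 6.62. Of 11 Hox genes past the filter, 10 were below 0, beside 48.5% of all genes. The Hox median was -0.13 against both CTR and VAS. Hoxa6 at -0.73 (-0.26 against VAS) was the next largest after Hoxb4, and the other 9 lay between -0.26 and 0.23.

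Receptor half-sites in promoters were counted to describe the genes 2-fold apart. RefSeq promoters of GRCm38.p6, from 250 bases before to 50 after each start, were held for 100 of the 133 higher genes and 13 of the 35 lower ones. The half-site AGGTCA and its variants (AGTTCA as well as GGGTCA and then GGTTCA), read on either strand, were found in 38 of the 100 (38.0%) and in 8 of the 13, beside 41.3% of 9621 promoters of all genes past the filter. Direct repeats of them with 1, 2 or 5 bases between were found in 0 of the 100 and 0 of the 13, beside 0.405% of all. The share with a half-site was thus near that of all genes for the higher genes, and 13 promoters are few for the lower ones. These letters describe the window only. Promoters of 3 genes high in BMS alone are printed to show such a match, in capitals, and how its place varied. In Angptl1 the match begins 131 bases before the start, in Dkk2 227 and in Cilp 237.
Angptl1, chr1:156838773-156839072 (+): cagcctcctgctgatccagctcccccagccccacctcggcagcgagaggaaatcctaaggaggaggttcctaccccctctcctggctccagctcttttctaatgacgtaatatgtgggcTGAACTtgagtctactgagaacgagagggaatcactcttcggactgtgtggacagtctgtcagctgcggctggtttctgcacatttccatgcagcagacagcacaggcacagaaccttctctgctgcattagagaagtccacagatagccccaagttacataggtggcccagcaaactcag
Dkk2, chr3:132085042-132085341 (+): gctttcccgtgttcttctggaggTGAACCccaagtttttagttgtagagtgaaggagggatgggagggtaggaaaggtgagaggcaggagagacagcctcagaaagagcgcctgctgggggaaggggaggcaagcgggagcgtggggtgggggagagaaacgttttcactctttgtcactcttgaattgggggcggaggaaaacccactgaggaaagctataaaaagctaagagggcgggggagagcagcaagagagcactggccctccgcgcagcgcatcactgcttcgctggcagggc
Cilp, chr9:65264930-65265229 (+): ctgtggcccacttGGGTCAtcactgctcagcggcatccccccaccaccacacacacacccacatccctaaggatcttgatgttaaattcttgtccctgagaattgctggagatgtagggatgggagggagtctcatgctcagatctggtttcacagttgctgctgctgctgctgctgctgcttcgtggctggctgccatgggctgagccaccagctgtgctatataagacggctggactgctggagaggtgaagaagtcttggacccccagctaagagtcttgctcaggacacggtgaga

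Matrix genes were higher in BMS than in CTR as a group, by small amounts for most members. Over 7 lists of collagens, elastic fibre proteins, proteoglycans, matricellular proteins, basement membrane, metalloproteinases and serine or cysteine proteases, 184 genes passed the filter. Of these 135 were above 0, 17 were 2-fold higher and 0 were 2-fold lower, with a median of 0.18. Over all genes past the filter 51.4% were above 0, 1.07% were 2-fold higher and 0.282% were 2-fold lower, with a median of 0.01. The 17 made up 12.8% of the 133 higher genes, and the 184 made up 1.48% of all genes past the filter. Without the 10 of the 184 that are also adventitial fibroblast markers, 126 of 174 were above 0 and 14 were 2-fold higher, with a median of 0.17.

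Of 33 collagen genes, 26 were above CTR, with a median of 0.17 against CTR and 0.36 against VAS. BMS was the highest of the 4 arrays for 20 of them, beside 27.3% of all genes. Col1a1 and Col1a2, the chains of the main fibrillar collagen, stood at 10.07, 10.44, 10.38 and 10.79 and at 10.08, 10.45, 10.39 and 10.89 in VAS, VAD, CTR and BMS. Both chains had the same order, with BMS highest and VAS lowest. Only Col15a1, a collagen of the basement membrane zone, was 2-fold higher, at 8.63, 8.63, 7.78 and 9.24. Of 13 laminin and basement membrane genes, 8 were above 0, with a median of 0.23 against CTR and 0.43 against VAS. Nid2 was flat at 7.30, 7.14 and 7.29 and reached 8.29 in BMS, and Lama2, Nid1 and Lamc1 were 0.79, 0.73 and 0.61 higher than in CTR and 0.50, 0.76 and 0.60 higher than in VAS.

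Of 21 elastic fibre genes, 16 were above 0 and 4 were 2-fold higher, with medians of 0.34 against CTR and 0.18 against VAS. Fbln2 stood at 9.63, 9.36, 8.57 and 10.63, with BMS highest and CTR lowest. Emilin2 stood at 8.38, 7.93, 6.90 and 8.70, Efemp1 at 10.30, 9.73, 8.87 and 10.47, and Fbln5 at 8.47, 8.01, 7.28 and 8.50. In these 3, BMS lay within 0.32 of VAS and CTR lay apart below. Eln, elastin itself, differed by -0.55 against CTR and 0.67 against VAS. Of 11 small leucine-rich proteoglycans, 8 were above 0. Epyc, of cartilage and tendon, stood at 5.76, 5.32, 5.19 and 7.36, Lum differed by 0.48 against CTR and 0.55 against VAS, and Fmod by -0.50 and -0.64.

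Among 28 serpins, serine proteases and cathepsins, 26 were above CTR and 6 were 2-fold higher. Fewer, 18, were above VAS, and the medians were 0.26 against CTR and 0.16 against VAS. Serpinf1, a secreted inhibitor of vessel growth, stood at 9.98, 9.64, 8.36 and 10.35, and Ctsh, a lysosomal protease, at 8.09, 7.85, 6.91 and 8.58. Both were lowest in CTR. Ctsk, a collagen-degrading cathepsin, was 1.13 higher than in CTR and 0.55 higher than in VAS, and Htra3 1.01 and 0.03. Metalloproteinases, ADAMTS proteases and their inhibitors were less one-sided, with 23 of 39 above 0 and none 2-fold apart. Mmp19 differed by 0.90 against CTR and 0.60 against VAS, and Timp1 by -0.54 and -0.46. Adamts10 turned with the control, at -0.90 and 0.51.

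Fibroblast markers were higher alongside the matrix genes. Of 27 adventitial fibroblast markers, 23 were above CTR and 10 were 2-fold higher, beside 51.4% and 1.07% of all genes. The adventitial median was 0.55 against CTR and 0.25 against VAS. CTR minus VAS had a median of -0.63 for the same list. CTR was the lowest array for 15 of the 27 and BMS the highest for 16, beside 26.9% and 27.3% of all genes. Cd34, a surface sialomucin, stood at 10.38, 10.22, 9.01 and 10.72, and Cd248, a stromal surface protein, at 11.22, 10.79, 10.06 and 11.63. Both were low in CTR, and BMS lay 0.34 and 0.42 above VAS. Clec3b, tetranectin, stood at 9.21, 9.30, 7.72 and 9.23, level in all but CTR. Of 19 alveolar fibroblast markers, 17 were above 0 and 1 was 2-fold higher, with medians of 0.28 against CTR and 0.08 against VAS. Of 8 tendon and perichondrium markers, 7 were above CTR and 5 above VAS, with a median of 0.50 against CTR and 0.46 against VAS. Thbs4 differed most, at 3.21 against CTR. The mean level of the 8 was 7.62 in VAS, 7.54 in VAD, 7.77 in CTR and 8.67 in BMS. The adventitial list was thus low in CTR, and BMS was also the highest array for many of its markers. The alveolar list was low in CTR, and the tendon list had its highest mean level in BMS. The part of these cells in the matrix differences was not tested.

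**Figure D4:**
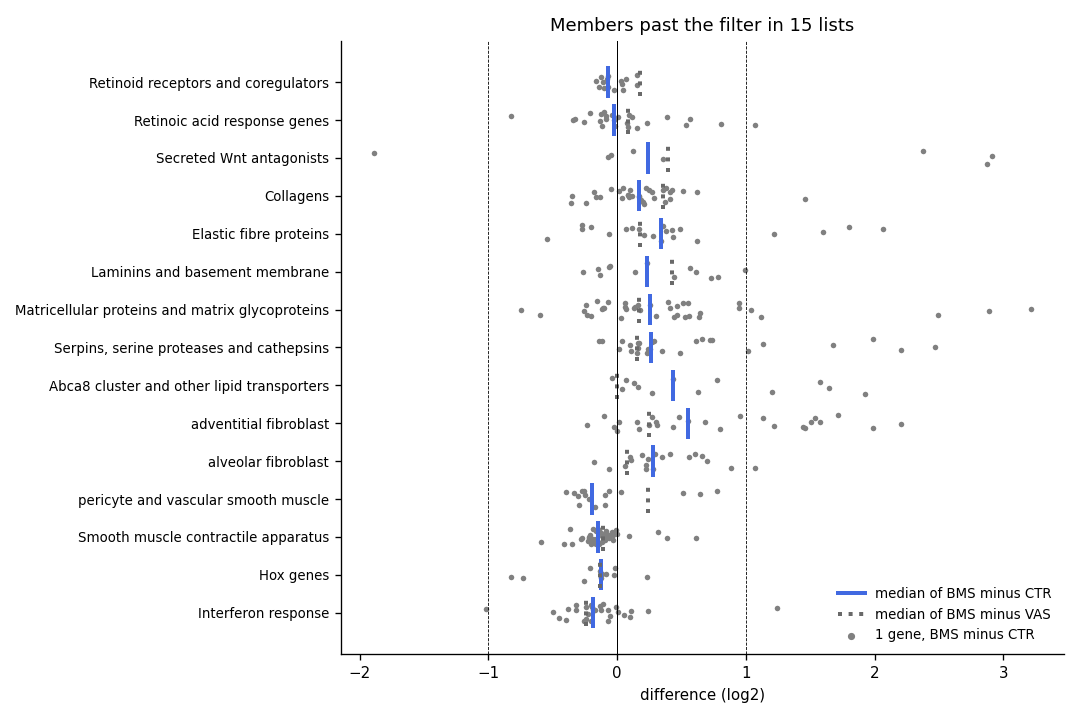
BMS minus CTR (log2, horizontal) of each member past the filter (grey points, 1 per gene) in 15 lists, with the list's median against CTR (blue line) and against VAS (dotted grey line), and dashed lines at 2-fold. The adventitial fibroblast list has its blue line furthest to the right (0.55), and the contractile list (-0.15) lies left of 0 with few points to the right.

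Of 43 genes of the contractile apparatus past the filter, 38 were below CTR, by small amounts, beside 48.5% of all genes. None of the 43 was 2-fold apart. The median was -0.15 against CTR, -0.11 against VAS and -0.32 against VAD. BMS was the lowest of the 4 arrays for 31 of the 43, beside 22.9% of all genes. Myh11, smooth muscle myosin, stood at 11.25, 11.56, 11.34 and 11.18 in VAS, VAD, CTR and BMS, and Cnn1, calponin, at 11.63, 11.85, 11.40 and 11.19. VAD was the highest array for both, and BMS the lowest. Pdlim5 differed by -0.60 against CTR and -0.19 against VAS, Dmd, dystrophin, by -0.42 and -0.05, and Casq2, a calcium store protein, by 0.61 and 0.19. The mean level of the list was 9.88 in VAS, 10.04 in VAD, 9.84 in CTR and 9.72 in BMS. Myocd, the coactivator that drives these genes, stood at 10.63, 10.76, 10.83 and 10.40, lowest in BMS. The 26 contractile regulators past the filter, Myocd among them, went both ways. Of these 17 were below CTR and 17 above VAS, with medians of -0.10 and 0.06, and BMS was the lowest array for 8. Of the 17 airway smooth muscle and myofibroblast markers 14 were below CTR, with medians of -0.11 against CTR and -0.07 against VAS. Of 16 pericyte and vascular smooth muscle markers 12 were below CTR, with a median of -0.20, but their median against VAS was 0.24. The adventitial fibroblast markers differed the other way over the same arrays, with a mean level of 9.10 in CTR and 9.87 in BMS, and their part in the contractile differences was not tested.

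Receptors that contract or relax the airway went both ways. Of 33 past the filter, 21 were above 0 and 2 were 2-fold higher, beside 51.4% and 1.07% of all genes. Ptger3, a prostaglandin E2 receptor, stood at 6.43, 5.66, 5.84 and 7.16, and Avpr1a, a vasopressin receptor, at 5.94, 6.03, 5.48 and 6.62. BMS was the highest array for both. Chrm2, the M2 muscarinic receptor, stood at 10.62, 9.37, 10.32 and 9.54, and Tacr2, a neurokinin receptor, at 7.57, 6.86, 7.71 and 6.96. For these the antagonist and deficient arrays lay together below both controls. Cacna1e, a voltage-gated calcium channel, stood at 6.71, 6.81, 7.93 and 6.67. The enzyme Pde10a, a cyclic nucleotide phosphodiesterase, stood at 6.61, 7.12, 8.20 and 7.18. In both CTR alone was high, so their differences of -1.27 and -1.02 were not seen against VAS (-0.05 and 0.57).

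Of 13 neurotrophic factors and receptors past the filter, 8 were above CTR, 5 below and 2 were 2-fold higher, with medians of 0.19 against CTR and 0.04 against VAS. BMS was above VAS in 7 of the 13. Gfra2, a coreceptor that signals through Ret, stood at 9.44, 9.46, 8.71 and 10.07 in VAS, VAD, CTR and BMS. Ntrk2 differed by 0.96 against CTR and 0.30 against VAS, Gfra1 by 0.93 and 0.88, and the factor Cntf by -0.43 and -0.65. Among receptors of other lists, Tek, the angiopoietin receptor, stood at 7.45, 6.86, 6.72 and 8.14. Pdgfra, a receptor for platelet-derived growth factors found on fibroblasts, stood at 8.96, 9.38, 8.57 and 9.64. It is also in the airway smooth muscle and myofibroblast list, as the only marker there 2-fold higher. For Tek, Pdgfra and Gfra2 alike CTR was the lowest and BMS the highest array. Bmp6 was 1.02 and Fgf1 1.14 above CTR, and both were 0.50 above VAS, but their lists had medians near 0 (0.06 over 44 genes of transforming growth factor and bone morphogenetic protein signalling, 0.05 over 29 growth factor genes).

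Neighbouring genes made up part of the higher set and of the lower one. In gene order, 18 of the 133 genes lay in 7 runs of adjacent genes past the filter that were all 2-fold higher. Likewise 6 of the 35 lower genes lay in 3 runs. How many runs any set of such a size would give was not tested. One run of higher genes held Abca8b, Abca8a and Abca9, lipid transporters that arose by duplication. Abca8a stood at 8.57, 8.54, 7.75 and 9.67 in VAS, VAD, CTR and BMS, Abca8b at 7.05, 7.29, 6.99 and 8.64, and Abca9 at 6.67, 6.71, 6.57 and 7.77. BMS was 2-fold above each other array in all 3. Another pair was Dpp4 and Fap, above.

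Runs of the Ifi200 family, nuclear DNA sensors induced by interferon, had the opposite pattern. Of 13 named family members 7 passed the filter, and 6 were 2-fold higher in BMS than in CTR. Ifi205 stood at 8.72, 8.50, 6.31 and 8.42, Ifi211 at 9.27, 8.16, 7.12 and 8.98, and Ifi204 at 7.78, 6.63, 5.60 and 7.49. CTR was the lowest array for all 7, BMS was below VAS in 6, and none was 2-fold above VAS. The members are related by sequence, and whether probes share signal among them was not examined, so single members are uncertain. Other interferon response genes did not follow, since 25 of 31 were below CTR, beside 48.5% of all genes. The medians of the 31 were -0.19 against CTR and -0.24 against VAS.

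Some genes of the higher set were 2-fold above CTR but below VAS or level with it. Retnla, a macrophage and epithelial secreted protein, stood at 8.63, 5.83, 4.89 and 7.42, and Sftpc, a surfactant protein, at 10.86, 9.28, 7.32 and 9.15. Both were highest in VAS. Hbb-b1, a globin, stood at 9.69, 7.69, 7.77 and 9.72, high in VAS and BMS alone. C7, a complement protein, differed by 1.14 against CTR and -0.66 against VAS. Of 22 complement and acute phase genes, 16 were above CTR, with medians of 0.20 against CTR and -0.45 against VAS. Among 15 macrophage and monocyte markers, 9 were above 0, with medians of 0.06 and -0.70, and their mean level was 7.32 in VAS, 6.997 in VAD, 6.30 in CTR and 6.66 in BMS.

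Of the genes lower in BMS, H2-T22 had by far the largest difference. This class I gene stood at 8.42 in VAS, 8.15 in VAD, 8.35 in CTR and 5.15 in BMS, low in BMS alone. Its close relatives did not share the size of it, with H2-T23 at -0.69 against CTR and -0.78 against VAS and H2-T10 at 0.72 and 0.55, and signal shared among such copies makes each uncertain. Cdh17, a cadherin, stood at 7.17, 7.31, 6.49 and 5.43, and Ifitm1, an interferon-induced membrane protein, at 6.20, 6.29, 5.25 and 4.24. BMS was 2-fold below every other array in both, and CTR lay between. Rpl6, a ribosomal protein, stood at 7.54, 7.37, 7.64 and 6.50, whereas 18 of 26 ribosomal protein genes were above CTR. Against VAS 4 of the 26 were above 0, with a median of -0.25, beside 0.08 against CTR. Saa1, an acute phase protein, stood at 5.65, 6.36, 6.39 and 5.18, with Saa3 at -0.60 (-0.57 against VAS).

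Small RNA genes took a large part of the lower set. Of the 35 genes, 12 were small RNA genes (34.3%), beside 1.82% of all genes past the filter, and 16 (45.7%) were protein coding, beside 92.7%. Another 4 (11.4%, beside 0.508%) were receptor or immunoglobulin segments, such as Traj21, which stood at 7.72, 7.39, 7.21 and 5.86 in VAS, VAD, CTR and BMS. Of the 133 higher genes 130 were protein coding and 0 were small RNA genes. MicroRNAs silence messenger RNAs that pair with their seed, bases 2 to 8, and are cut from longer precursors. The sources used here do not give which part of a precursor the probes read, and total RNA was made with an RNeasy Mini Kit per the labels' protocols. The 7 microRNA genes 2-fold lower were Mir505, Mir20a, Mir221, Mir27b, Mir493, Mir669m-1 and Mir1949. RefSeq mature sequences (GRCm38.p6) were held for 5 of them, and the 10 arms had 10 different seeds. Both arms are printed for Mir20a and Mir221, in which BMS was 2-fold below every other array, and for Mir27b, in which CTR was apart, with the seed in capitals to show that none is shared.
mmu-miR-20a-5p: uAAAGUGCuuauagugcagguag
mmu-miR-20a-3p: aCUGCAUUacgagcacuuaaag
mmu-miR-221-5p: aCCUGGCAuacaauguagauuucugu
mmu-miR-221-3p: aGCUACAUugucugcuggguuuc
mmu-miR-27b-5p: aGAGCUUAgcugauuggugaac
mmu-miR-27b-3p: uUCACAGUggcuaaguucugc

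Mir20a, of the growth-promoting miR-17 cluster, stood at 8.12 in VAS, 8.05 in VAD, 8.32 in CTR and 6.80 in BMS. Mir221 stood at 5.82, 5.85, 6.09 and 4.61. BMS alone was low in both. Mir27b stood at 5.29, 5.33, 6.71 and 5.29, so CTR alone was high, and Mir493 at 7.44, 8.14, 8.62 and 7.40. Over 139 microRNA genes past the filter (symbols that begin with Mir, some host transcripts among them), 115 were below CTR, beside 48.5% of all genes. Of the 139, 7 were 2-fold lower and 0 were 2-fold higher, beside 0.282% and 1.07% of all genes. The microRNA median was -0.30. Against VAS and VAD the medians were -0.11 and -0.09, and CTR minus VAS had a median of 0.15, so part of the distance lay on the side of CTR.

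Small nucleolar RNA genes, whose products guide the chemical modification of ribosomal RNA, had lower values in BMS as a class. This rests on 1 BMS array. How much short RNA each preparation kept was not tested, for these genes or for the microRNA genes. Of 76 past the filter with symbols that begin with Snor or Scarna, 74 were below CTR, 70 below VAS and 68 below VAD. Their medians were -0.49, -0.46 and -0.38, beside 0.02, 0.04 and 0.02 for protein-coding genes, while CTR minus VAS had a median of -0.03. BMS was thus the low array against all 3 others. Snord12 stood at 7.16, 6.95, 6.78 and 5.66, and Snord13 at 10.33, 10.23, 10.54 and 9.53, the only members of these 76 that were 2-fold lower. The small nucleolar RNA genes AF357355, AF357426 and DQ267101, which have provisional names, were 2-fold lower as well. Snord89 and Snord57 differed by -0.94 and -0.90 against CTR and by -0.82 and -1.97 against VAS, and the 2 members above CTR were Snord92 (0.53) and Snord53 (0.06). Many such RNAs lie in introns of host genes, a group added after the values were seen. Of 17 host genes named Snhg or Gas5, 15 were below CTR and 16 below VAS, with medians of -0.33 and -0.52. Gas5 stood at 9.29, 9.23, 9.24 and 8.87, and Snhg6 at 10.57, 10.43, 10.20 and 9.68. CTR minus VAS had a median of -0.27 for the host genes, so CTR lay between VAS and BMS for them and not for the small RNAs.

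**Figure D5:**
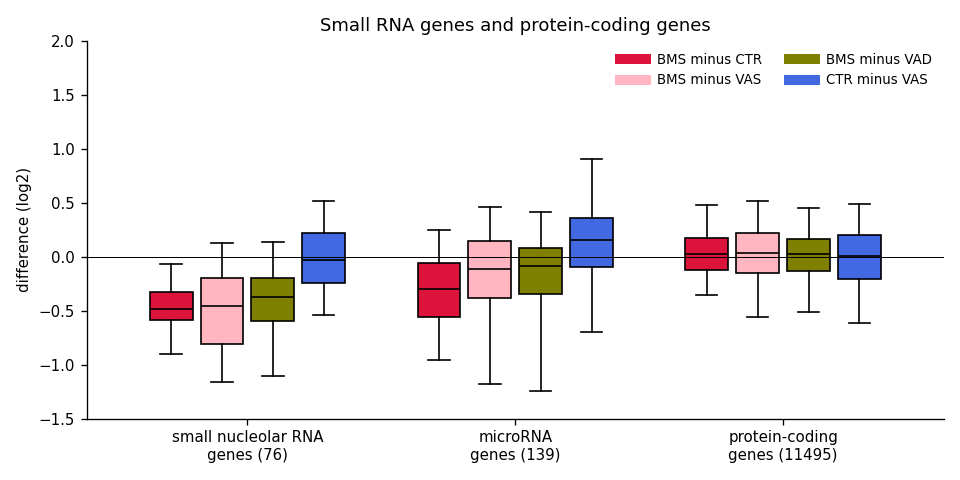
Differences between arrays (log2, vertical) for small nucleolar RNA genes, microRNA genes and protein-coding genes past the filter, with boxes from the lower to the upper quartile, a line at the median and whiskers over the middle 90% of genes. The small nucleolar RNA boxes of BMS minus CTR, VAS and VAD (medians -0.49, -0.46 and -0.38) lie below 0 and that of CTR minus VAS (-0.03) straddles it.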

How the data were processed

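RNA of sorted airway smooth muscle cells was measured on 4 Affymetrix arrays, 1 per group, each from a pool of 3 mice. The authors deposited log2 values made with RMA, and the submitters' processing notes name affy 1.36.1 and R 2.15.1. There is 1 probe set per Entrez gene. The sources used here do not give which arrays were normalized together, and normalization between arrays hides a shift shared by most genes. No scanner intensities were used, so detection above background was not assessed, and precision is limited by the number of arrays. Symbols come from GEO's platform annotation: 23185 probe sets had 1 symbol and 2021 had none. All 12395 genes past the filter matched the RefSeq gene table (GRCm38.p6) by Entrez number.

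Differences between log2 values were computed with Python 3.11.15 (numpy 2.4.6, pandas 2.3.3, matplotlib 3.10.9), and genes 2-fold or more apart (1 on the log2 scale) were counted. With 1 array per group no test was made. The members and the 61 gene and marker lists were chosen with earlier results of these data known. Named genes are the 20 furthest from 0 on each side, leaving out provisional or copy-rich names, up to 6 members of each list by size, retinoid list members, and genes at a threshold. Others (small RNA, Ifi200 and host genes, genes with BMS apart, and some list members shown for contrast) were chosen after their values were seen. Other settings tried were all named genes, only those reaching the 75th percentile (7.67), 1.5-fold and 3-fold limits, quantile normalization again and cyclic loess (limma 3.58.1 in R 4.3.3), unnamed probe sets included, VAS in place of CTR, and the mean of both controls. Counting was tested on simulated data. A planned look at protein features was not run.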

Additional observations from a re-analysis of the deposited data

How the results depend on the processing

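Each group is 1 pooled array, so no difference can be set against a spread between mice, and leaving out an array was not possible within a group. No paired analysis was possible because each group has 1 array. Quantile normalization again and cyclic loess kept all 4 counts within 1.5 times, and all 61 list medians within 0.1 of their values. They moved none of 342 named genes by the SD over genes (0.31) or more. The deposited arrays already had close medians over all probe sets, from 5.97 (BMS) to 6.02 (VAS), so these settings could change little. The choice of control changed the counts more. With VAS in place of CTR, 70 genes were 2-fold higher in BMS and 181 lower, against 133 and 35 with CTR. With the mean of both controls 69 were higher and 49 lower. Without the filter 67 genes were lower, the added genes all lying below the filter's limit. With the filter at the 75th percentile the counts were 80 higher and 14 lower, with BMS apart upward in 21 and downward in 5. At 1.5-fold they were 386, 234, 97 and 80, and at 3-fold 43, 3, 11 and 1. Among list medians at least 0.15 from 0, those that changed sign with VAS were of retinoid uptake (-0.084), complement (-0.45, and -0.022 with the mean of both controls), prostaglandin and cyclic nucleotide enzymes (0.10), histocompatibility genes (-0.37, and -0.15 with the mean), pericytes (0.24) and chondrocytes (0.0090). The chondrocyte median was 0.26 with the stricter filter, and the neurotrophic median -0.13 without a filter. Of 75 genes 2-fold apart among the 342, those that changed sign with VAS were Adh1 (-0.18), Apod (-0.71), C7 (-0.66), Ifi205 (-0.30) and others. These others were Kcnt2 (-0.25), Ly6c2 (-0.70), Pde10a (0.57), Retnla (-1.21), Scd1 (-0.27), Sftpc (-1.71) and Wif1 (0.42). Small RNA genes and the other Ifi200 genes lay outside the 342. Among them Ifi211 and Ifi204 changed sign as well (-0.29 each), and Mir27b was level with VAS. The medians of the small RNA genes, added after their values were seen, ran from -0.44 to -0.51 for small nucleolar RNAs and from -0.11 (VAS in place of CTR) to -0.39 for microRNAs, with -0.13 without a filter. The cause of these changes was not tested.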
